A study of Mus musculus with 22 samples.

Results

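Imprinted genes are transcribed mainly from the copy inherited from the mother or mainly from the copy inherited from the father. Each cluster of such genes is governed by an imprinting control region whose DNA is methylated on only 1 parental copy, a mark set in the germline and kept through later cell divisions by DNMT1 and by zinc finger proteins such as ZFP57. Many clusters also hold a long noncoding RNA, for example Kcnq1ot1, H19 or Meg3, and polycomb and histone methyltransferases add to silencing, most of all in the Kcnq1ot1 cluster. The genes regulate growth of the fetus and placenta, and the Dlk1-Meg3 cluster is well known for its loss of expression in some cultured stem cell lines.

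The values described here are those of a list of known imprinted genes with 42 members, chosen by symbol and arranged by cluster. Of these, 40 were in the table of 18487 genes and all 40 passed the filter on low values. Airn and Rasgrf1 were not analysed here. The table gives 1 value per gene and does not separate the parental copies, so it holds no measure of imprinting itself. The parental labels used below are the usual ones for mouse. They may hold only in certain tissues for some members and were not checked in these cells. In bulk RNA, fewer cells that transcribe a gene cannot be told apart from less RNA per cell.

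RNA was from cultures of E14, an established line of mouse embryonic stem cells, and polyadenylated RNA was selected before sequencing. The 22 libraries fell into 11 groups of 2: NC, the reference here, whose label names no compound, and 10 groups each exposed to 1 compound. All groups were the same cell line with no genetic change named in the labels, which gave neither dose nor exposure time. DZNep blocks the breakdown of S-adenosylhomocysteine, which inhibits methyltransferases broadly. Valproate inhibits histone deacetylases. Bromosporine occupies bromodomains, which bind acetylated lysine. Chaetocin and UNC0379 inhibit lysine methyltransferases, MS023 inhibits type I arginine methyltransferases, CPTH2 and Garcinol inhibit acetyltransferases, and IOX1 is a broad inhibitor of JmjC demethylases. OICR is a label kept as it stands. The labels do not say that the 2 libraries of a group came from separate cultures, so the p-values measure the spread between these libraries, which may be technical.

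Values are the deposited normalized read counts, which the authors had forced to the same distribution in every library. The median was 409 and the largest value 221616 in all 22 libraries, so sequencing depth is unknown here and no limit of detection was set. Values are given for replicate 1 and then replicate 2, with 2 libraries in every group. Changes are differences in log2(value + 1) from a limma fit to all libraries, with their standard error (SE). Calls required an adjusted p (Benjamini-Hochberg) below 0.05 together with a change of more than 1 on the log2 scale, that is, over 2-fold.

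The cells carried the markers of their label. Summed values of 10 embryonic stem cell markers lay between 209156 and 307233 in the 22 libraries, and Pou5f1 lay between 25663 and 39262. Of these markers, Utf1 was called higher with Bromosporine, DZNep, OICR and Valproate (0.573%, 5.27%, 0.127% and 2.73% of all tested genes). Zfp42 was called higher with DZNep. Nanog and Tdgf1 were not called. Nanog was 44793 and 59405 in NC and 92251 and 123367 with DZNep, and Tdgf1 25722 and 15640 in NC and 11541 and 8477 with DZNep. Sums of 10 fibroblast markers were far lower than those of the stem cell markers, 176 to 2244. But they were 1996 to 2244 with DZNep and 1670 to 1835 with Valproate against 843 to 1604 in NC. Much of these sums came from Col3a1 and Postn, which could differ widely within a group (Col3a1 4 and 743 in NC, Postn 658 and 0 with Valproate). Of the 9 fibroblast markers tested, 3 rose with DZNep (Col1a1, Thy1, Pdgfra) and 3 with Valproate (Lum, Thy1, Pdgfra). Of all tested genes 5.27% and 2.73% were called higher. Pdgfrb, not called, went the other way: 217 and 108 in NC, 57 and 64 with DZNep, 59 and 54 with Valproate. In NC Col1a1 was 24 and 24, Thy1 12 and 11 and Lum 0 and 0, and with CPTH2 Lum was 346 and 0. The sums of 6 primitive endoderm markers were 3598 to 4003 with DZNep and 3389 to 3919 with Valproate against 2054 to 2535 in NC, and most of each sum was Lamb1 (3131 and 3264 with DZNep, 2081 and 1690 in NC). With DZNep, Dab2 and Pdgfra rose (5.27% of all tested genes) and Gata4 fell (6.14%), from 156 and 154 in NC to 35 and 61. Those of 7 trophoblast markers were 5389 to 5869 with Valproate, 3176 to 3518 with DZNep and 2883 to 3607 in NC, mostly from Tfap2c (3379 and 2712 in NC). With DZNep, 2 of the 6 tested trophoblast markers rose, against 5.27% of all tested genes. These were Eomes (129 and 119 to 356 and 199) and Gata3 (0 and 9 to 44 and 54), and the list's median change was 1.22. Of 5 neural markers tested, Sox1 and Nes fell with DZNep (6.14% of all tested genes), and the list's median change was -1.01. With Valproate Map2 rose and Sox1 fell (2.73% and 2.55% of all tested genes), and with MS023 Sox1 fell (0.585%). Bromosporine lowered Col1a1 (24 and 24 to 7 and 6) and Hand1 (9 and 4 to 0 and 0) and raised Eomes, beside 2.77% of all tested genes lower and 0.573% higher. The part of these genes in the changes below was not tested.

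The promoter windows of 5 members are shown as examples. They belong to 3 maternally expressed RNAs of the Dlk1-Meg3 cluster, the paternally expressed Plagl1 and the maternally expressed Ascl2. Each runs from 250 bases before to 50 bases after a transcription start in RefSeq (GRCm38.p6), 5′ to 3′ on the gene's strand, with CG dinucleotides, the sites of DNA methylation, in capitals.
Meg3 (chr12:109540746-109541045, plus strand): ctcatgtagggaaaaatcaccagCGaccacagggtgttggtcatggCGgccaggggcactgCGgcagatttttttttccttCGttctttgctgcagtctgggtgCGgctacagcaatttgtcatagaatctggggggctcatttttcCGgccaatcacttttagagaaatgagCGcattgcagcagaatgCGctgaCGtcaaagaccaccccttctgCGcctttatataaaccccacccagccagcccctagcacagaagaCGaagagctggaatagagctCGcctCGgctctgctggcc
Rian (chr12:109603695-109603994, plus strand): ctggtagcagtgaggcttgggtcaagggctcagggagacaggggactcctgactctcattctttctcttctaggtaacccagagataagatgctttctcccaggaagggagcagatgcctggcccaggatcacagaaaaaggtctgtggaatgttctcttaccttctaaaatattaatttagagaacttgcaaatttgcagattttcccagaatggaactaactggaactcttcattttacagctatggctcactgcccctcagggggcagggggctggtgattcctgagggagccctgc
Mirg (chr12:109734731-109735030, plus strand): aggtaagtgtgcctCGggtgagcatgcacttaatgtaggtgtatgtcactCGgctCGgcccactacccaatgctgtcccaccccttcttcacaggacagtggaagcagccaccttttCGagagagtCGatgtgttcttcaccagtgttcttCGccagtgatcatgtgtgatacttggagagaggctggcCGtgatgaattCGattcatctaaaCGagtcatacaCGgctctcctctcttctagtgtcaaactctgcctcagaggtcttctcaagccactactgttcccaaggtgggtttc
Plagl1 (chr10:13090582-13090881, plus strand): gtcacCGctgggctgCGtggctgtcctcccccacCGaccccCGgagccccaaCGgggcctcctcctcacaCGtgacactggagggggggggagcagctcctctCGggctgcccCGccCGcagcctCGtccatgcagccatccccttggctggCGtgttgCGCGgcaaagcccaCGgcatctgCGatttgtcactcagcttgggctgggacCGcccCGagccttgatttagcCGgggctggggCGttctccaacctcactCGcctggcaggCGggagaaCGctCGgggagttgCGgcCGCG
Ascl2 (chr7:142969215-142969514, minus strand): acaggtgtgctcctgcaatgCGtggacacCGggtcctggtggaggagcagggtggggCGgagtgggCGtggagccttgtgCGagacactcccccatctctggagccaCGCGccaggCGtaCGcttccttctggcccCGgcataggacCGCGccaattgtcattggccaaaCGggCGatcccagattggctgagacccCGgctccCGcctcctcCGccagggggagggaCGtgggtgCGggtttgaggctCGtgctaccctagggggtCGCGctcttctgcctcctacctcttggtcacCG

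These windows held 13 CG dinucleotides at Meg3, 0 at Rian, 10 at Mirg, 26 at Plagl1 and 23 at Ascl2. The Mirg and Plagl1 windows lie inside their genes as annotated in GENCODE (109729764 to 109749460 and 13060504 to 13131694), not at the annotated starts. Entries were found for 33 of the 40 members. Nespas, Cdkn1c, Impact, H19, Sgce, Rtl1 and Peg10 had none. Meg3 has a second window in RefSeq, not shown, which held 1 CG dinucleotide and no hexamer of the kind below. Over the 33 genes, 75.8% had a window with at least 10 CG dinucleotides, against 45.8% of all 27025 genes with an entry. Members had more windows per gene, and by window the shares were 60.4% of 53 and 43.5% of 32851. The hexamer TGCCGC, the core of the ZFP57 motif, was searched on both strands and stood in a window of 10 of the 33 members (30.3%) and of 13.1% of all genes, or in 20.8% of the members' windows and 11.6% of all windows. It began at base 61 of the Meg3 window and base 161 of the Plagl1 window, and the Rian, Mirg and Ascl2 windows did not hold it. The hexamer itself holds a CG, and the members and all genes were not matched for CG content. A match is a description of the letters and not a bound site.

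DZNep changed the most imprinted genes. Igf2 passed the filter on low values only through the DZNep libraries, in which it was high, and is left out of the count here. Of the other 39 members, 8 were called (20.5%), 3 higher and 5 lower than in NC, against 11.4% of the 17275 genes tested (5.27% higher and 6.14% lower). Cdkn1c, Ascl2 and Peg10 rose, and Rian, Magel2, Gnas, Plagl1 and Impact fell. With Igf2 the count was 9 of 40 (22.5%), 4 of them higher. Members labelled maternal and members labelled paternal were found on both sides: 2 of 18 labelled maternal rose and 2 fell, and 1 of the other 21 labelled paternal rose and 3 fell. The median change of the 39 members was -0.19, beside -0.04 over all tested genes. A fit of the DZNep and NC libraries alone, with 2 residual degrees of freedom, called 1 member, Magel2.

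Valproate changed 3 members (7.5%; 5.28% of all tested genes): Peg10 rose, and Mirg and Grb10 fell. The share of all genes was 2.73% higher and 2.55% lower. Its median over the members was 0.37, beside -0.02 over all genes. In both Valproate libraries 20 of the 40 members, Magel2 among them, lay above both NC libraries (23.0% of all genes), and 9 lay below both (27.6%). With DZNep 10, Igf2 among them, lay above and 14 below (26.5% and 32.4% of all genes). With Bromosporine 10 lay above and 8 below (26.4% and 23.0%). Bromosporine changed 2 members (5.0%; 3.34% of all tested genes, 0.573% higher and 2.77% lower), with Nespas higher and Ddc lower, and its median was 0.07 beside 0.01. Fits of the Valproate or the Bromosporine libraries with NC alone called 0 members (limma). Within the fit of all libraries, 19 members with Valproate (24.1% of all genes) and 8 with Bromosporine (19% of all genes) had an unadjusted p under 0.05. Magel2 passed the filter on low values only through Valproate, and without it the Valproate counts were 3 called and 18 at an unadjusted p under 0.05 of 39 members.

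With the other 7 compounds limma called 0 members, against 0.0174% of all tested genes with Chaetocin, 0.00579% with CPTH2, 0.00579% with Garcinol, 0.116% with IOX1, 0.973% with MS023, 0.388% with OICR and 0% with UNC0379. At an unadjusted p under 0.05 the members numbered 2 with Chaetocin (4.72% of all genes), 0 with CPTH2 (0.944%), 1 with Garcinol (3.62%), 3 with IOX1 (12.4%), 6 with MS023 (15.0%), 3 with OICR (10.7%) and 2 with UNC0379 (6.08%). Over the 10 compounds, Peg10 was the only member called with 2, and 27 members were called with none. Each of the rest was called with 1, among them Igf2, which passed the filter only through the DZNep libraries. The share of all genes called with any compound was not computed. All 10 comparisons share the 2 NC libraries.

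**Figure D1:**
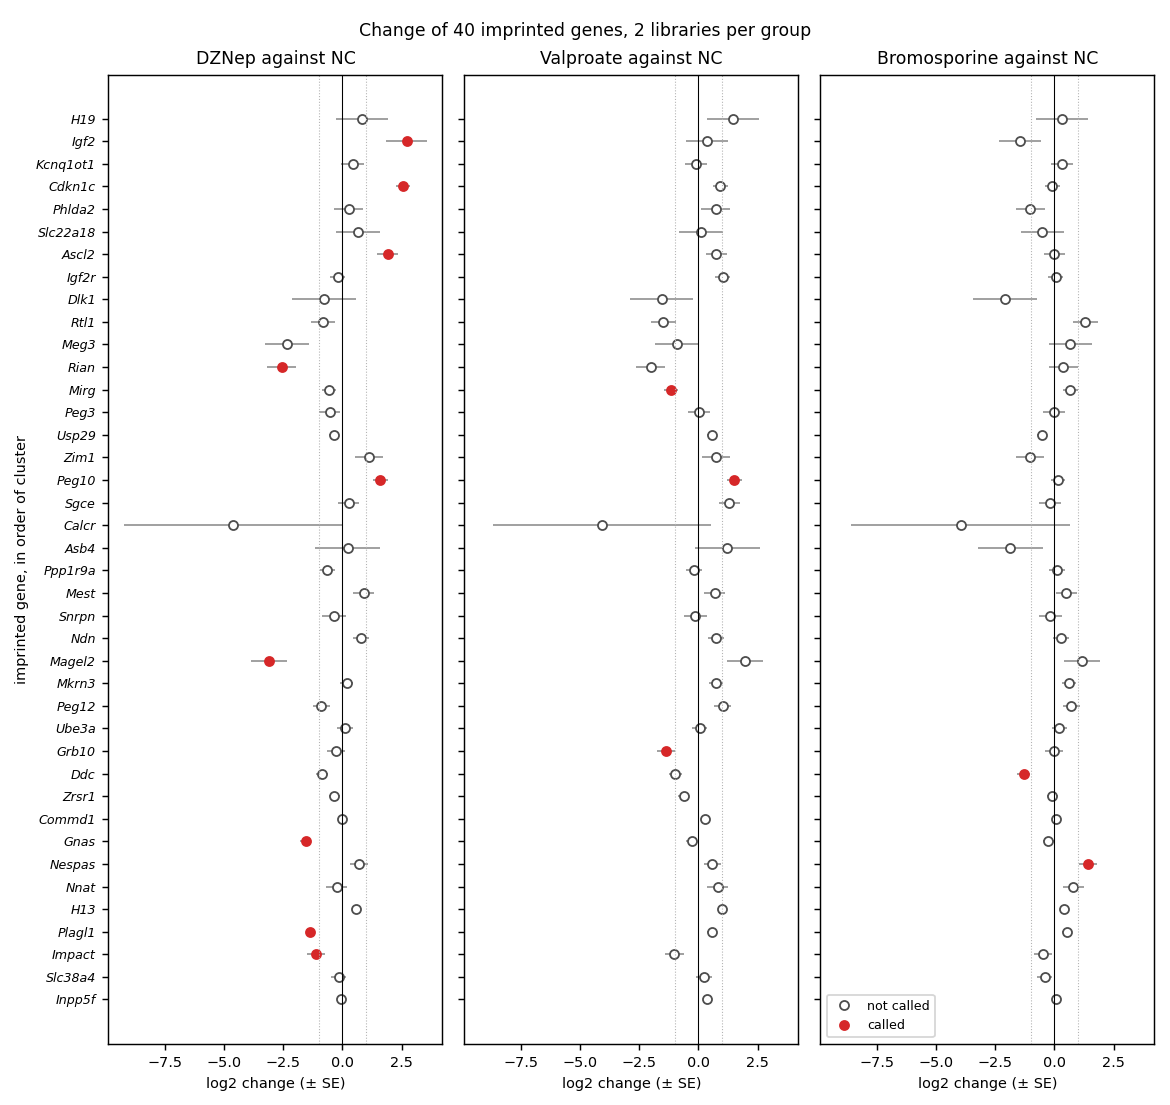
Log2 change against NC (x axis, log2 of the normalized count + 1, with SE) of the 40 imprinted genes (y axis, by cluster) for DZNep, Valproate and Bromosporine, 2 libraries per group. Filled red points are called and dotted lines mark a 2-fold change: 9 members were called with DZNep (among them Igf2, which passed the filter only through DZNep), 3 with Valproate and 2 with Bromosporine, and the long bars belong to Calcr, which was listed at 0 in 11 of 22 libraries.

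The Dlk1-Meg3 cluster on chromosome 12 showed the largest fall of an abundant member. Meg3, Rian and Mirg are noncoding RNAs from the maternal copy that lie head to tail (109541001 to 109571726, 109603940 to 109661716 and 109729764 to 109749460 in mm10, all on the plus strand). Rian carries small nucleolar RNAs and Mirg is host to 14 of the miRNA hairpins in RefSeq.

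Rian stood at 26697 and 15357 in NC, 4680 and 2540 with DZNep, and 6028 and 4159 with Valproate. Those 4 libraries were the lowest of the 22, and the 16 libraries of the other 8 compounds lay between 13816 and 49460. Rian fell by 2.55 on the log2 scale with DZNep (SE 0.61, limma, adjusted p = 0.0082), to 0.17 times its NC value. With Valproate the change was -2.02 (SE 0.61), and its adjusted p of 0.0521 in limma missed the threshold. The DZNep call was lost without DZNep replicate 2 (-2.11, limma, adjusted p = 0.0608) or without NC replicate 1 (-2.15, limma, adjusted p = 0.0878).

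Meg3, at whose promoter and upstream region the cluster's imprint is carried, was 11215 and 5094 in NC, 2623 and 848 with DZNep, and 6960 and 2359 with Valproate. Over the other 8 compounds it ranged from 5439 to 24752. Both DZNep libraries lay below both NC libraries, but replicate 2 was below replicate 1 in all 11 groups, and this spread is in the error. The change with DZNep was -2.34 (SE 0.91, limma, adjusted p = 0.0815) and did not pass the test. Within replicate 1 it was -2.10 and within replicate 2 it was -2.59. With Valproate it was -0.90 (SE 0.91, limma, adjusted p = 0.597) and the libraries overlapped those of NC.

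Mirg followed another order, lowest with Valproate. Its values were 915 and 885 in NC, 362 and 446 with Valproate, 607 and 603 with DZNep, and 803 to 1744 over the other 8 compounds. The Valproate and DZNep libraries were the lowest 4. Mirg fell by 1.16 with Valproate (SE 0.30, limma, adjusted p = 0.026), while its change with DZNep was -0.57 (SE 0.30, limma, adjusted p = 0.188). The Valproate call was lost when any of the 4 libraries was left out (changes of -1.31 to -1.01), with adjusted p-values in limma of 0.162 without Valproate replicate 1, 0.0534 without Valproate replicate 2, 0.122 without NC replicate 1 and 0.103 without NC replicate 2. The longest transcript of Meg3 shared 8.97% of its 31-base stretches with other genes, chiefly Gm26906 on the opposite strand, and Rian and Mirg shared 2.03% and 3.56%.

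The paternally expressed protein-coding members of the cluster were low. Rtl1, a retrotransposon-derived gene of the placenta whose transcript runs opposite to miRNAs of the cluster, was 12 and 42 in NC, 7 and 8 with Valproate, 17 and 9 with DZNep, and 46 and 72 with Bromosporine. The Valproate libraries were the lowest of all 22, and the change from NC was -1.48 (SE 0.52, limma, adjusted p = 0.0933). Dlk1, which codes for a transmembrane inhibitor of adipocyte differentiation, ranged from 1 to 34 with a median of 11. It was higher in replicate 2 than in replicate 1 in all 11 groups, and no comparison called it.

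**Figure D2:**
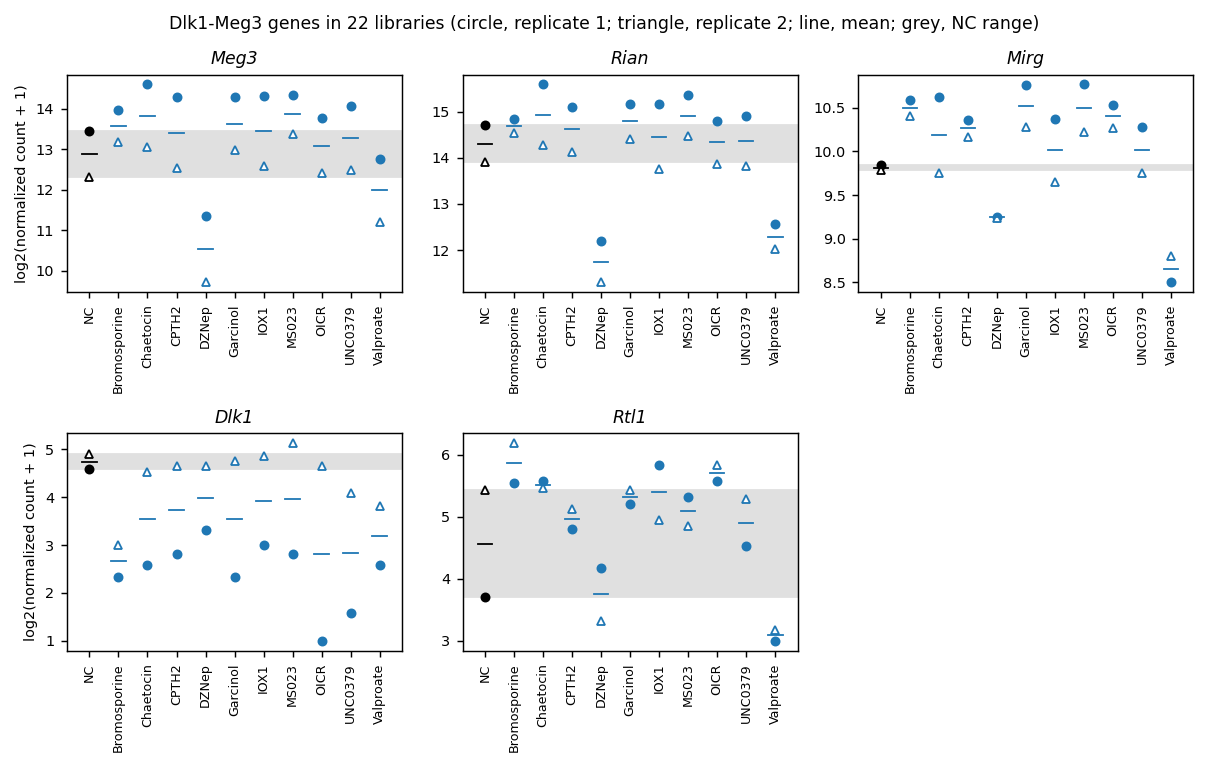
Values of Meg3, Rian, Mirg, Dlk1 and Rtl1 (y axis, log2 of the normalized count + 1) in NC and 10 compounds (x axis); circles are replicate 1, triangles replicate 2, lines the mean and the grey band the NC range. Rian was 2540 to 6028 in the DZNep and Valproate libraries and at least 13816 in all others, and replicate 2 was lower for Meg3 and higher for Dlk1 in all 11 groups.

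In the Kcnq1ot1 cluster on distal chromosome 7, the maternally expressed Cdkn1c and Ascl2 rose with DZNep. Cdkn1c, an inhibitor of cyclin-dependent kinases that restrains growth, was 56 and 82 in NC, 354 and 456 with DZNep, and 143 and 119 with Valproate. The DZNep libraries were the highest of the 22 and overlapped no other group. The rise was 2.55 (SE 0.30, limma, adjusted p = 7.16e-05), or 5.86-fold, and with Valproate the change was 0.93 (SE 0.30, limma, adjusted p = 0.0648). Of the 31-base stretches of Cdkn1c, 28.4% also occur in another gene, above all in Gm44732 on the opposite strand, and the labels do not say that strand was kept, so reads of the pair cannot be told apart.

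Ascl2, a transcription factor of trophoblast progenitors, was 48 and 41 in NC and 193 and 148 with DZNep, while the highest value in any other library was 87, with Valproate. It rose by 1.91 with DZNep (SE 0.44, limma, adjusted p = 0.00695). Neither rise was lost when a library was left out. Of the trophoblast markers, Eomes and Gata3 were also called higher with DZNep, and Tfap2c was not (2745 and 2576, with 3379 and 2712 in NC). Eomes rose with Bromosporine too (331 and 298), where Ascl2 was 57 and 34. A link between these genes was not tested.

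The other members of the cluster were not called. Kcnq1ot1, the paternally expressed noncoding RNA that silences the cluster, was 315 and 203 in NC, 413 and 281 with DZNep and 349 and 161 with Valproate, within a range of 161 to 567. Its change with DZNep was 0.43 (SE 0.47, 95% interval -0.59 to 1.44). It overlaps Kcnq1 on the opposite strand. Phlda2, a placental growth inhibitor, ranged from 64 (Bromosporine) to 470 (Chaetocin), and Slc22a18, a membrane transporter, from 18 to 129. All 3 were lower in replicate 2 in 11 of 11 groups.

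Igf2 and H19 lie upstream on the same chromosome and share enhancers, Igf2 coding for a fetal growth factor made from the paternal copy and H19 for a noncoding RNA from the maternal copy. Igf2 was 39 and 15 with DZNep and 0 to 7 in the other 20 libraries, with 2 and 4 in NC. It reached 10 only in the DZNep libraries, through which alone it passed the filter on low values, so its level is given as a description with no test. A few reads decide a value at this level. Of the 31-base stretches of Igf2, 76.0% also occur in another gene, above all in Gm49394, an overlapping gene on the same strand. H19 was 6 and 2 in NC, 10 and 5 with DZNep and 17 and 8 with Valproate, its overall range being 0 to 17, and no comparison called it.

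**Figure D3:**
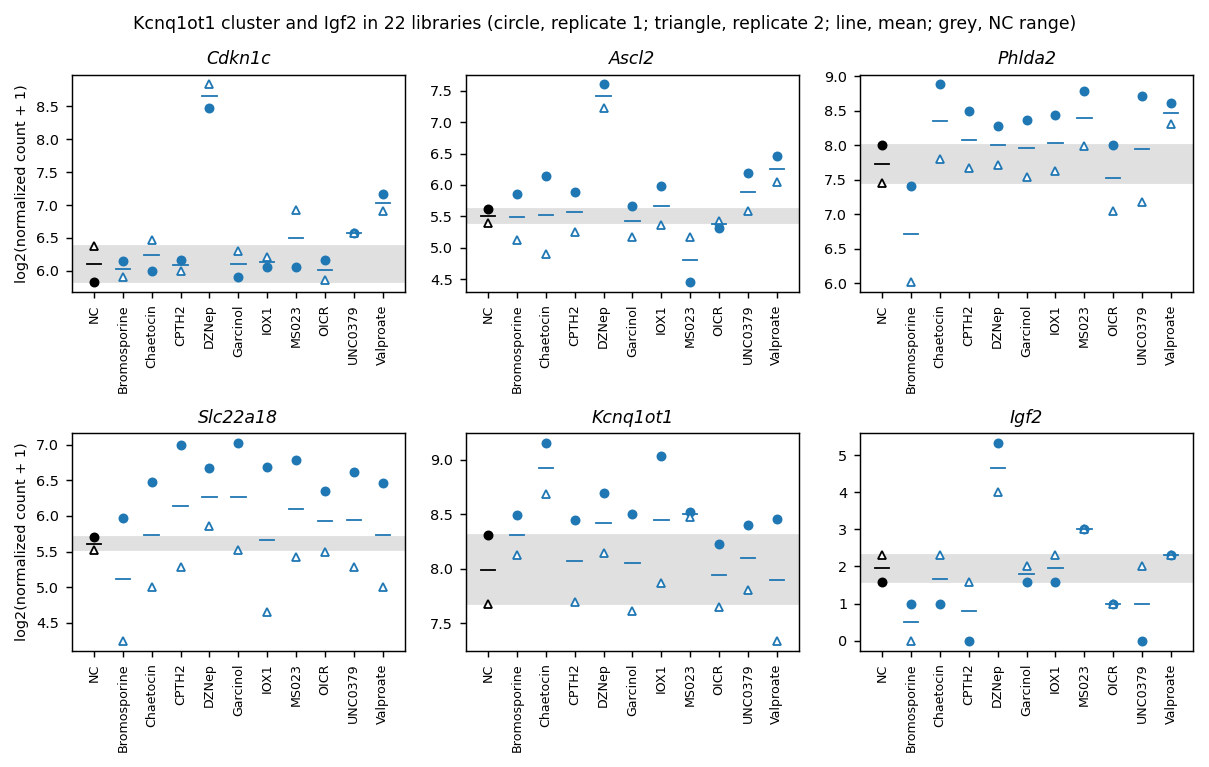
Values of 5 genes of the Kcnq1ot1 cluster and of Igf2 (y axis, log2 of the normalized count + 1) in NC and 10 compounds (x axis); circles are replicate 1, triangles replicate 2, lines the mean and the grey band the NC range. Cdkn1c (354 and 456) and Ascl2 (193 and 148) stood above all other libraries with DZNep, and Igf2 reached 10 only there.

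Peg10 was the member called with 2 compounds. This retrotransposon-derived, paternally expressed gene is needed for the placenta and shares a promoter region with Sgce (chromosome 6, 4747306 to 4760517, plus strand, mm10). Peg10 was 225 and 261 in NC, 1024 and 534 with DZNep, 597 and 815 with Valproate, and 158 to 408 over the other 8 compounds. The 4 DZNep and Valproate libraries were the highest of all. The rise was 1.61 with DZNep (SE 0.31, limma, adjusted p = 0.00247) and 1.52 with Valproate (SE 0.31, limma, adjusted p = 0.00766). The Valproate call was lost without Valproate replicate 2 (1.30, limma, adjusted p = 0.0588) or NC replicate 1 (1.41, limma, adjusted p = 0.0653).

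Sgce, which codes for a sarcoglycan of muscle and brain membranes and is read in the opposite direction, was 92 and 41 in NC, 131 and 180 with Valproate and 54 and 103 with DZNep. Its 2 Valproate libraries were the highest of the 22, and the change was 1.31 (SE 0.45, limma, adjusted p = 0.084). The neighbouring maternal members were not called. Ppp1r9a ranged from 162 to 345 and Asb4 from 0 to 35. Calcr was listed at 0 in 11 libraries and between 315 and 886 in the others. In 7 groups only 1 of the 2 libraries was above 0, so no fold is given for it.

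In the Snrpn cluster on chromosome 7, whose human counterpart is involved in Prader-Willi and Angelman syndromes, the most abundant gene was Snrpn, a component of the spliceosome. Snrpn ranged from 4562 to 14700 with a median of 8584, was 9686 and 12556 in NC, and was higher in replicate 2 in all 11 groups. No comparison called it. Its paternally expressed neighbours Magel2 and Peg12 were lower with DZNep than with Valproate, Magel2 as a description and Peg12 by the test.

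Magel2, which acts with ubiquitin ligases in protein recycling, was 7 and 8 in NC, 0 and 0 with DZNep, 38 and 27 with Valproate and 35 and 9 with Bromosporine. Over the other 7 compounds it was 1 to 8. It fell with DZNep (limma, adjusted p = 0.00944), and no fold is given because both DZNep libraries were listed at 0. The call was lost with a pseudocount of 10 (limma, adjusted p = 0.11) and without NC replicate 1 (limma, adjusted p = 0.0524). It passed the filter on low values only through the Valproate libraries, so its higher level there is given with no test.

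Peg12, a relative of the Frat regulators of Wnt signalling, was 155 and 201 in NC, 74 and 120 with DZNep, 325 and 397 with Valproate and 296 and 286 with Bromosporine. The Valproate libraries were the highest of the 22. Against NC the changes were -0.90 with DZNep (SE 0.36, limma, adjusted p = 0.0893) and 1.02 with Valproate (SE 0.36, limma, adjusted p = 0.0936), neither of them called. Ndn ranged from 303 to 1008, Mkrn3 from 112 to 331 and the maternally expressed ubiquitin ligase gene Ube3a from 3023 to 6468, and limma called none of the 3. Ube3a overlaps Snhg14 on the opposite strand and shares 29.3% of its stretches with other genes, and Snrpn overlaps Gm38393 and Snurf on its own strand and shares 34.3%.

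Plagl1, a paternally expressed zinc finger gene that slows proliferation and acts on other imprinted genes, was 1664 and 1663 in NC and 700 and 594 with DZNep. In the 20 libraries outside DZNep it ranged from 1377 to 3445, so the DZNep libraries stood alone at the bottom. It fell by 1.37 (SE 0.18, limma, adjusted p = 0.000211). With Chaetocin, at 3403 and 3445, it had its highest level, and the change of 1.04 (SE 0.18) came to an adjusted p of 0.222 in limma. UNC0379 gave 3351 and 2177 (0.70, SE 0.18, limma, adjusted p = 0.448).

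In the Gnas cluster on chromosome 2, Gnas, which codes for the stimulatory G protein alpha subunit, was 4371 and 3902 in NC and 1162 and 1723 with DZNep. No other library was below 2297. Gnas fell by 1.54 with DZNep (SE 0.24, limma, adjusted p = 0.000492), to 0.343 times NC. Like the calls of Cdkn1c, Ascl2, Peg10 and Plagl1 with DZNep, this one stood with each library left out.

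Nespas, the antisense RNA from the paternal copy of that cluster, was 23 and 36 in NC, 85 and 74 with Bromosporine, 93 and 62 with MS023, and 29 to 64 in the other libraries. It rose by 1.43 with Bromosporine (SE 0.37, limma, adjusted p = 0.0385), and the change with MS023, 1.37 (SE 0.37, limma, adjusted p = 0.0789), did not pass. The Bromosporine call was lost when any of its 4 libraries was left out (1.12 to 1.74), with adjusted p-values in limma of 0.2 without Bromosporine replicate 1, 0.105 without Bromosporine replicate 2, 0.292 without NC replicate 1 and 0.054 without NC replicate 2. Both NC libraries were among the lowest, and against the mean of the other 9 compounds the change was 0.78 (limma, adjusted p = 0.0877). Exons of Nespas and Gnas overlap on opposite strands.

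Grb10, an adaptor that damps insulin and growth factor signalling, was 1623 and 1843 in NC and 581 and 789 with Valproate, the lowest libraries of the 22. It fell by 1.35 (SE 0.37, limma, adjusted p = 0.0349). The call was lost when any of the 4 libraries was left out (-1.57 to -1.13), with adjusted p-values in limma of 0.21 without Valproate replicate 1, 0.0584 without Valproate replicate 2, 0.113 without NC replicate 1 and 0.162 without NC replicate 2. Its neighbour Ddc, which codes for DOPA decarboxylase, was 1371 and 1761 in NC, 513 and 783 with Bromosporine, 609 and 1040 with Valproate and 742 and 989 with DZNep.

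These 3 groups, and MS023 and OICR, lay below both NC libraries for Ddc. It fell by 1.29 with Bromosporine (SE 0.27, limma, adjusted p = 0.0153). With Valproate (-0.96, SE 0.27, limma, adjusted p = 0.0384) and DZNep (-0.86, SE 0.27, limma, adjusted p = 0.0357) the adjusted p passed and the size was under 2-fold. The Bromosporine call on Ddc was lost without Bromosporine replicate 1 (-0.99, limma, adjusted p = 0.157), NC replicate 1 (-1.47, limma, adjusted p = 0.0537) or NC replicate 2 (-1.11, limma, adjusted p = 0.104). Against the mean of the other 9 compounds its fall was just short of 2-fold.

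Igf2r, which clears IGF2 from the cell surface and is made from the maternal copy, was 6478 and 3921 in NC, 13277 and 8010 with Valproate, and 3575 to 6707 over all other groups. The Valproate libraries were the 2 highest. The change was 1.03 (SE 0.32, limma, adjusted p = 0.0543) and missed the threshold, and within replicate 1 and replicate 2 it was 1.04 and 1.03.

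Impact, a paternally expressed regulator of translation, was 6785 and 5137 in NC, 3506 and 2085 with DZNep and 3342 and 2586 with Valproate, and the other 16 libraries lay between 4005 and 11204. It fell by 1.13 with DZNep (SE 0.38, limma, adjusted p = 0.0469), while -1.01 with Valproate (SE 0.38, limma, adjusted p = 0.119) did not pass. The DZNep call was lost without DZNep replicate 2 (-0.75, limma, adjusted p = 0.261), NC replicate 1 (-0.93, limma, adjusted p = 0.258) or NC replicate 2 (-1.33, limma, adjusted p = 0.0713). It was also lost with no filter on low values (limma, adjusted p = 0.0621) and with median-ratio rescaling (-1.08, limma, adjusted p = 0.0651).

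**Figure D4:**
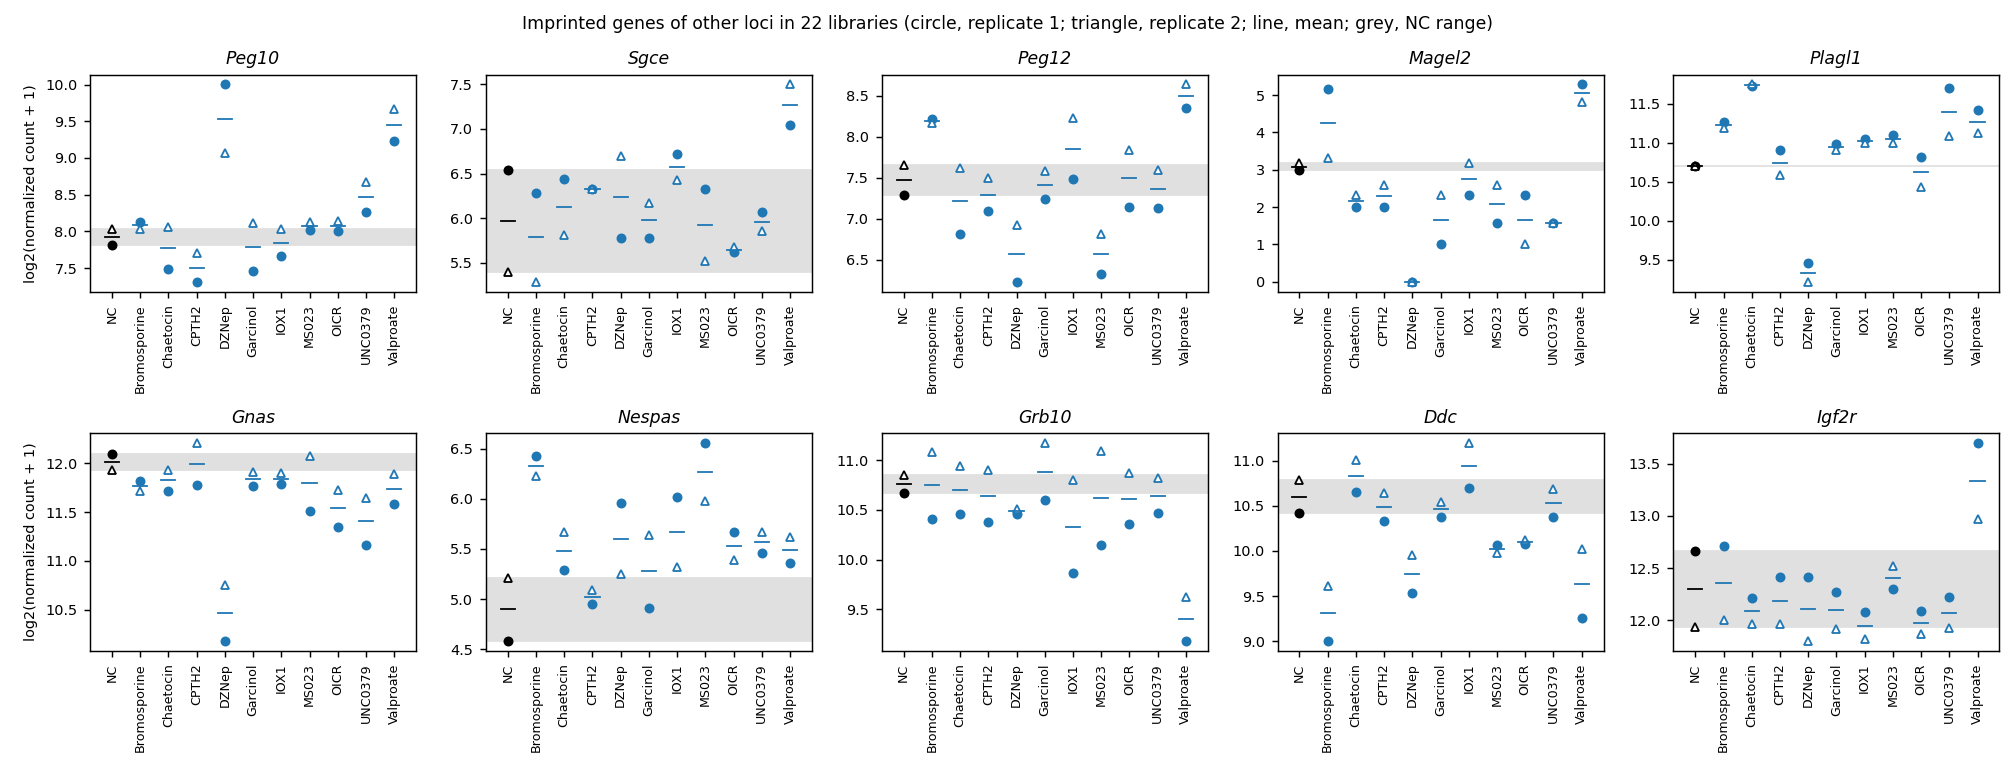
Values of 10 imprinted genes at other loci (y axis, log2 of the normalized count + 1) in NC and 10 compounds (x axis); circles are replicate 1, triangles replicate 2, lines the mean and the grey band the NC range. Peg10 was highest with DZNep (1024 and 534) and Valproate (597 and 815), Plagl1 and Gnas lowest with DZNep, Grb10 lowest with Valproate, and Igf2r highest with Valproate (13277 and 8010).

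The remaining members were called in no comparison with NC. Peg3, a zinc finger gene, was 1489 and 1270 in NC and ranged from 646 to 2931. Its neighbours Usp29 and Zim1 ranged from 65 to 215 and from 7 to 122, and Usp29 shares 34.7% of its stretches with other genes, most of all Zim3 on the opposite strand. Mest, at 400 and 708 in NC, ranged from 370 to 1154, and shares 33.5% with other genes, most of all Copg2 on the opposite strand. Commd1 was among the steadiest members, 2620 and 2332 in NC with a range of 1949 to 3351, and Zrsr1, which lies within it on the opposite strand, ranged from 427 to 1038.

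Slc38a4, an amino acid transporter of the placenta, had the highest level among the single loci, 12808 and 6925 in NC, and was lowest with IOX1 (3253 and 4720), where the change was -1.26 (SE 0.32, limma, adjusted p = 0.149). H13, a signal peptide peptidase gene, was 541 and 447 in NC and 915 and 1030 with Valproate. Its change with Valproate was 0.98 (SE 0.15, limma, adjusted p = 0.00123), just under 2-fold and so not called. Nnat ranged from 8 to 68 and Inpp5f from 536 to 880.

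DZNep, Valproate and Bromosporine were compared directly because earlier results of these data showed the most calls with them. DZNep and Valproate differed in 5 of 38 members (13.2%; 10.8% of all tested genes, 4.85% higher and 5.92% lower with DZNep). Igf2 and Magel2, which passed the filter only through DZNep and only through Valproate, are left out of this count. Cdkn1c was higher with DZNep by 1.62 (SE 0.30, limma, adjusted p = 0.00183). Lower with DZNep were Plagl1 by -1.93 (SE 0.18, limma, adjusted p = 2.1e-05), Peg12 by -1.92 (SE 0.36, limma, adjusted p = 0.00201), Gnas by -1.27 (SE 0.24, limma, adjusted p = 0.00201) and Igf2r by -1.22 (SE 0.32, limma, adjusted p = 0.0139). With Igf2 and Magel2 the count was 6 of 40 (15.0%), the sixth being Magel2, listed at 0 in both DZNep libraries and at 38 and 27 with Valproate. The Igf2r call was lost without DZNep replicate 2 (-0.92, limma, adjusted p = 0.118) or Valproate replicate 1 (-0.86, limma, adjusted p = 0.153), and that of Gnas without DZNep replicate 1 (-0.98, limma, adjusted p = 0.0231).

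DZNep and Bromosporine differed in 12 of the 39 members other than Igf2 (30.8%; 14.8% of all tested genes, 8.26% higher and 6.5% lower), 4 higher and 8 lower with DZNep, and in 13 of 40 with it. Cdkn1c (2.63), Ascl2 (1.92), Zim1 (2.12) and Peg10 (1.45) were higher. Zim1 was 32 and 35 in NC, 122 and 44 with DZNep and 20 and 13 with Bromosporine (SE 0.59, limma, adjusted p = 0.0169 between the compounds). Igf2 was 1 and 0 with Bromosporine. Rian (-2.94), Meg3 (-3.02), Mirg (-1.25), Rtl1 (-2.13), Peg12 (-1.62), Gnas (-1.29), Plagl1 (-1.89) and Magel2 were lower. Here Meg3 passed (SE 0.91, limma, adjusted p = 0.0249). It no longer did so without DZNep replicate 2 (-2.21, limma, adjusted p = 0.176), Bromosporine replicate 1 (-2.62, limma, adjusted p = 0.15) or Bromosporine replicate 2 (-3.42, limma, adjusted p = 0.0523). Calls also went for Ascl2 and Zim1 without Bromosporine replicate 2 (1.55 and 1.82), for Zim1 and Peg10 without DZNep replicate 1 (1.39 and 0.98), for Mirg without Bromosporine replicate 1 (-1.16), and for Rtl1 without DZNep replicate 2 or Bromosporine replicate 2 (-1.70 and -1.81).

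Valproate and Bromosporine differed in 8 members (20.0%; 8.64% of all tested genes, 5.82% higher and 2.81% lower with Valproate). Peg10 (1.36), Sgce (1.49), Usp29 (1.09) and Cdkn1c (1.01) were higher with Valproate, and Rtl1 (-2.79), Rian (-2.40), Mirg (-1.84) and Grb10 (-1.34) were lower. Usp29 was 126 and 117 in NC, 181 and 178 with Valproate and 83 and 84 with Bromosporine (SE 0.21, limma, adjusted p = 0.00434 between the compounds). Usp29, Rtl1 and Mirg stood with each library left out. The calls of Rian (-2.67 to -2.13) and Cdkn1c (0.88 to 1.14) were lost without any of the 4 libraries, that of Peg10 without Valproate replicate 2 or Bromosporine replicate 2 (1.14 and 1.31), and those of Grb10 and Sgce without Valproate replicate 1 (-1.12 and 1.71), Valproate replicate 2 (-1.56 and 1.26) or Bromosporine replicate 2 (-1.01 and 0.99).

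Some genes that write and keep imprints were called. In a list of 22 genes of imprint maintenance and DNA methylation, all tested, DZNep raised 3 and lowered 1 (5.27% and 6.14% of all tested genes). Valproate raised 3 (2.73% of all tested genes), Bromosporine 1 (0.573%) and OICR 1 (0.127%). The median changes of the list were 0.08 with DZNep and 0.03 with Valproate. Zfp57, the zinc finger protein that protects imprints, was 7821 and 9304 in NC, 19854 and 15958 with DZNep and 18362 and 20309 with OICR. It rose by 1.06 with DZNep (SE 0.15, limma, adjusted p = 0.000238) and by 1.18 with OICR (SE 0.15, limma, adjusted p = 0.00397).

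Dnmt3l, the cofactor of de novo DNA methylation, was 9 and 40 in NC, 1487 and 612 with DZNep, 442 and 536 with Valproate and 160 and 311 with Bromosporine, and the rises were 5.56, 4.59 and 3.47 (SE 0.92 each). Dnmt3a and Dnmt3b of the same list were not called with DZNep and went opposite ways. Dnmt3a was 572 and 613 in NC and 185 and 225 with DZNep. Dnmt3b was 630 and 1277 in NC and 2244 and 1980 with DZNep. Dppa3, which guards maternal methylation marks in the zygote, was 194 and 160 in NC and 3544 and 2894 with Valproate, a rise of 4.18 (SE 0.64, limma, adjusted p = 0.00132). With DZNep it was 220 and 199. Ctcfl, the germline relative of the insulator protein CTCF, was 4 and 8 in NC, 78 and 48 with DZNep and 31 and 38 with Valproate and rose with both. Tet3, a dioxygenase that oxidizes methylated cytosine, was 580 and 523 in NC and 158 and 159 with DZNep, where it fell by 1.79 (SE 0.33, limma, adjusted p = 0.00181).

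The maintenance methyltransferase gene Dnmt1 was 15612 and 13829 in NC and lay between 12666 and 15612 in all libraries. Uhrf1, its recruiting partner, was 21917 and 21274 in NC and 15350 and 15350 with Valproate, a change of -0.49 (SE 0.10, limma, adjusted p = 0.00544) that was under 2-fold. Of 8 polycomb genes, Jarid2 alone was called with DZNep (1.03, SE 0.16, limma, adjusted p = 0.00051), where 11.4% of all tested genes were. Ezh2 was 9031 and 11077 in NC and 6912 and 8923 with DZNep (-0.35, SE 0.19, limma, adjusted p = 0.2).

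**Figure D5:**
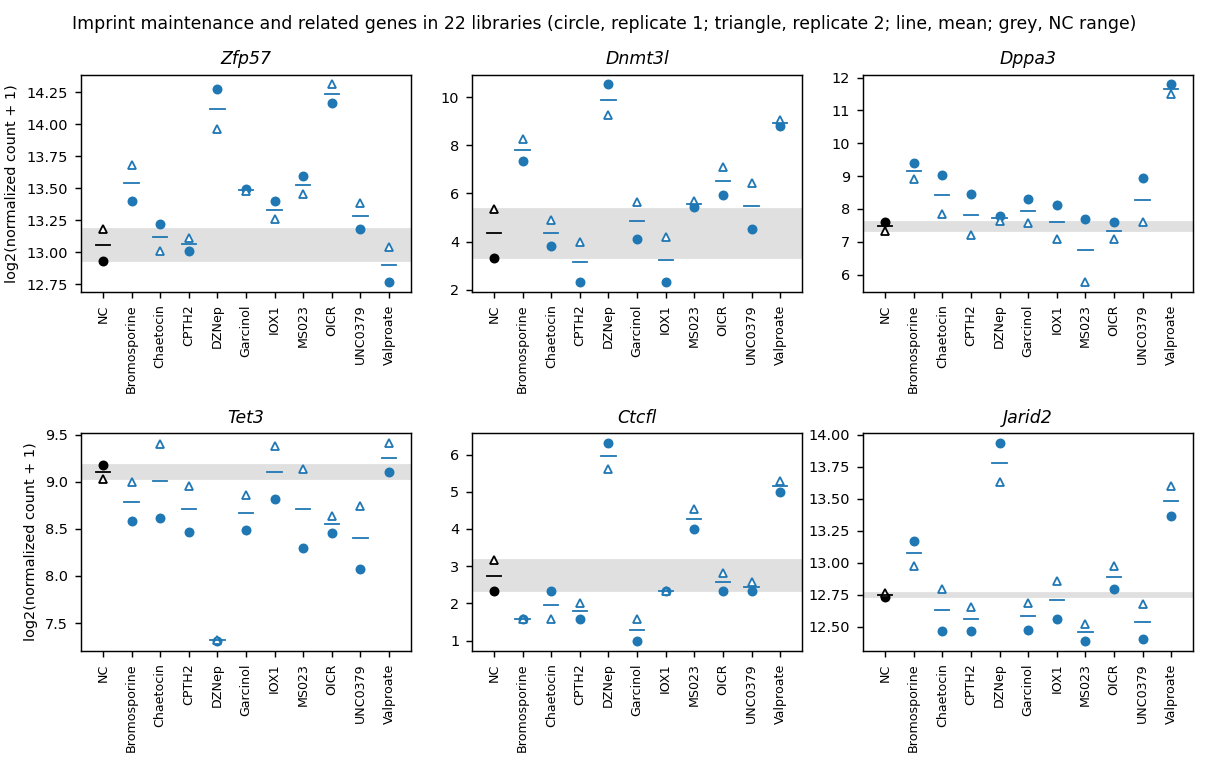
Values of Zfp57, Dnmt3l, Dppa3, Tet3, Ctcfl and Jarid2 (y axis, log2 of the normalized count + 1) in NC and 10 compounds (x axis); circles are replicate 1, triangles replicate 2, lines the mean and the grey band the NC range. Zfp57 was highest with OICR and DZNep, Dppa3 with Valproate (3544 and 2894), and Dnmt3l with DZNep (1487 and 612).

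A further list held other genes with reported imprinting or beside imprinted ones. Of 33 listed, 25 were in the table and 23 tested. With DZNep 1 rose and 3 fell (5.27% and 6.14% of all tested genes), and with Valproate 2 rose and 1 fell (2.73% and 2.55%). With Bromosporine limma called 0 (3.34% of all tested genes), and 1 had an unadjusted p under 0.05 (19%). Dio3, the thyroid hormone deiodinase at the far end of the Dlk1-Meg3 region, was 113 and 234 in NC, 916 and 777 with DZNep and 122 and 354 with Valproate. It rose by 2.37 with DZNep (SE 0.64, limma, adjusted p = 0.0155), in the group where Rian fell. Atp10a (-1.78), Trappc9 (-1.17) and Zim3 (-3.86) fell with DZNep, and with Valproate Sfmbt2 (1.35) and Osbpl5 (2.54) rose and Tspan32 (-1.65) fell.

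The replicate number was a source of spread for many members. Replicate 2 was higher than replicate 1 in all 11 groups for 5 of the 40 members (12.5%; 12.3% of all tested genes) and lower in all 11 for 7 (17.5%; 8.75% of all tested genes). Meg3, Rian, Kcnq1ot1, Phlda2, Slc22a18, Mkrn3 and Ube3a were the 7, and Dlk1, Snrpn, Ndn, Grb10 and Zrsr1 the 5. The labels do not say what the number stands for.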

How the data were processed

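Poly(A)-selected RNA of E14 cells was measured in 22 libraries, grouped and numbered as in the sample titles. The deposited values are scores here: normalized counts per gene that the authors rounded to whole numbers. The submitters' processing notes name bcl2fastq, Bowtie2 2.2.5, RSEM and mm10, and the study's methods, which do not mention these compounds, add full-quantile normalization with EDASeq, a step that hides depth and cancels any shift common to most genes. Which counting route gave the table was not stated. A second table of group means was not used, and 0 columns were unmatched.

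Values were analysed as log2(value + 1) with limma 3.58.1 in R 4.3.3. A gene was kept if 2 or more of the 22 libraries reached 10 (17275 of 18487). The model had 11 group means and 11 residual degrees of freedom, with variances moderated along a trend (eBayes). Two-sided p-values were adjusted over all tested genes within each contrast (10 with NC and 3 between compounds), and a call needed an adjusted p under 0.05 and a log2 change over 1. Confidence intervals are at 95%. The members, the lists and the 3 contrasts between compounds were chosen with earlier results of these data known. Members called in any contrast, and the most abundant member of each cluster, are given with their values, other members by their range, and from the other lists the genes of imprint control and the imprinted genes called. Dnmt1, Dnmt3a, Dnmt3b, Uhrf1 and Ezh2 were added after their values were seen.

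Simulated data with known changes in DZNep against NC served to test the fit. It recovered 72 of 100 changes of size 2 and 85 of 100 of size 3 on the log2 scale, with 6 false calls. Smaller changes were not simulated. Positions and shared 31-base stretches came from GENCODE M21 (mm10), and promoters from RefSeq (GRCm38.p6). Plots used matplotlib 3.10.9 in Python 3.11.15.

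Alternatives were a pseudocount of 10, no filter, a fit of only the 2 groups compared, the replicate number as a block, median-ratio rescaling, adjustment over all 10 contrasts with NC, values under 3 set to 3 for contrasts between compounds, and leaving out each library. The mean of the other 9 compounds as the reference was chosen after seeing the data.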

Additional observations from a re-analysis of the deposited data

How the results depend on the processing

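The counts here are of all 40 members, Igf2 and Magel2 included. With a pseudocount of 10 Valproate called 5 members instead of 3. Adjustment over all 10 contrasts with NC gave 1 with Bromosporine, 1 with Valproate and 1 with Chaetocin (Plagl1), and the calls of Igf2 and Impact with DZNep, Nespas with Bromosporine and Mirg and Grb10 with Valproate were lost. A fit of only the 2 groups compared, which has 2 residual degrees of freedom, called 1 member with DZNep (Magel2), 0 with Valproate, 0 with Bromosporine, 1 with CPTH2, 1 with MS023, 0 between DZNep and Valproate, 3 between DZNep and Bromosporine and 0 between Valproate and Bromosporine. Over all genes it called 97 with DZNep, 75 with Valproate and 128 with Bromosporine, against 1970, 912 and 577. With the mean of the other 9 compounds as the reference, chosen after seeing the data, the counts were 1 with Bromosporine, 11 with Valproate and 1 with MS023, and Meg3 passed with DZNep (-2.80, limma, adjusted p = 0.00662).

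With each library left out the members called ranged from 5 to 8 with DZNep (5 without NC replicate 1), 1 to 3 with Valproate (1 without NC replicate 2), 0 to 1 with Bromosporine, 5 to 7 between DZNep and Valproate, 9 to 11 between DZNep and Bromosporine, 3 to 8 between Valproate and Bromosporine, and 0 with each of the other 7 compounds. A lone library was then assumed to vary like the other groups.

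The samples share a replicate number and are not shown to be paired: deviations of same-numbered libraries correlated at 0.0535 to 0.298 over the 55 pairs of groups, 51 of them above 0.1, though the first 2 principal components (16.5% and 11.2%) separated the numbers in all 11 groups. The fit with a replicate block called 4 members with Bromosporine, 1 with Chaetocin (Plagl1), 1 with IOX1 (Slc38a4), 1 with MS023 (Nespas), 9 with Valproate and 10 between DZNep and Valproate. In it Meg3 with DZNep (-2.34, limma, adjusted p = 4.42e-06) and Rian with Valproate (-2.02, limma, adjusted p = 4.05e-05) passed. Over all genes it called 1189 with Bromosporine and 1487 with Valproate.

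No member's change in the contrasts it is described in reversed its sign under any of these. Of the single-gene values under an alternative, 504 kept their side of the threshold, 103 dropped below it and 39 rose past it. Depth is unknown, so values under 10, as for Igf2, H19, Magel2 and Dlk1, have no stated error of counting.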
